A study of Mus musculus with 2 samples.

Results

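Nerve terminals keep transmitter in synaptic vesicles and release it when a vesicle fuses with the plasma membrane. The genes described here are 8 members of that machinery, Sv2a, Sv2b, Sv2c, Syt1, Syt11, Snap25, Syn2 and Rab3a, followed across the pyramidal sublayers, interneurons and granule nuclei of the mouse hippocampal field CA1. They were chosen by name, each symbol matched 1 row of the deposited matrices, and they are 8 of the 30431 genes listed. Sv2a encodes the vesicle protein that binds levetiracetam, a drug used against seizures.

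Synaptic vesicle release follows a cycle. Vesicles are loaded with transmitter, held near the membrane by synapsins, docked with the help of small Rab GTPases, and fused by a complex of SNARE proteins when calcium binds to a synaptotagmin. The SV2 proteins are vesicle membrane glycoproteins with the fold of a transporter, and they act on vesicle priming and on the handling of synaptotagmin. Snap25 supplies SNARE helices on the plasma membrane side, Syt1 is the fast calcium sensor of forebrain neurons, and Rab3a is the main Rab of vesicles ready for release. Syn2 is a synapsin. Syt11 is a synaptotagmin that does not bind calcium and has been tied to vesicle and membrane retrieval.

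The nuclei came from dorsal CA1 of male C57BL/6J mice that carried Calb1::Cre and a Tdtomato reporter in both groups. Epilepsy mice were given repeated kainate (5 mg/kg) at 6 to 7 weeks of age until status epilepticus of over 30 min, then diazepam (4 mg/kg), and were studied 12 weeks later in the chronic phase. Control mice received vehicle at the same age and were studied at the same time. There is 1 droplet library of sorted nuclei per group, and although the labels name 2 mice per group, they leave unsaid how many went into each library. No difference between the groups therefore has a replicate check, and every interval given is at 95% and covers only the error of counting. RNA molecules were counted by their barcodes (UMIs), and a level is the UMIs of a gene relative to all UMIs of a nucleus class, in CPM. A log2 ratio past 0.32 in either direction is called past the fold mark. Levels are compared only within a gene, since the capture of UMIs depends on gene structure.

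The epilepsy library held 3078 nuclei with 7112131 UMIs and the control library 3661 nuclei with 11858162 UMIs, with medians of 2443 and 3447 UMIs per nucleus. The libraries shared 16 barcodes. After removal of likely doublets, clusters built without the 8 genes and without 115 other vesicle and SNARE genes were named from marker genes. CA1 pyramidal-like nuclei, with all 9 pyramidal markers, numbered 2336 in the epilepsy library and 2841 in the control library. Interneuron-like nuclei numbered 144 and 198, oligodendrocyte-like nuclei 316 and 221, microglia-like nuclei 38 and 36, and dentate granule-like nuclei 14 and 154. With 14 granule-like nuclei in the epilepsy library, under the 30 required, that class has values but no ratio. Superficial-like clusters had Calb1 and Epha3 above the other pyramidal-like nuclei and Ndst4 at least 2-fold below them, and held 1227 and 1405 nuclei. The deep-like cluster, led by Col11a1 with Ndst4 high and little Calb1, held 553 and 764 nuclei. In the epilepsy library the 8 genes had 31007 UMIs before any nucleus was left out, against 55174 UMIs in the control library, and each gene was detected in both.

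The SV2 genes divided the neuron classes between them. Sv2b was high in pyramidal-like nuclei and scarce in interneuron- and granule-like nuclei, Sv2c was nearly limited to 1 interneuron cluster and to granule-like nuclei, and Sv2a was higher in interneuron-like than in pyramidal-like nuclei. Sv2b lies on chromosome 7 (GRCm38, chr7:75114894-75309262, minus strand), Sv2c on chromosome 13 (chr13:95954594-96132577, minus strand) and Sv2a on chromosome 3 (chr3:96181151-96195521, plus strand). The promoters of Sv2c and Sv2b are printed because these genes had opposite patterns across classes. They are RefSeq windows on GRCm38.p6 from 250 bases before to 50 bases after the start nearest the annotated 5′ end. Capitals mark 3 motifs searched on both strands, the GC box GGGCGG or CCGCCC, the letters TATAA or TTATA, and the CRE core TGACG or CGTCA.
Sv2c, chr13:96132528-96132827, minus strand: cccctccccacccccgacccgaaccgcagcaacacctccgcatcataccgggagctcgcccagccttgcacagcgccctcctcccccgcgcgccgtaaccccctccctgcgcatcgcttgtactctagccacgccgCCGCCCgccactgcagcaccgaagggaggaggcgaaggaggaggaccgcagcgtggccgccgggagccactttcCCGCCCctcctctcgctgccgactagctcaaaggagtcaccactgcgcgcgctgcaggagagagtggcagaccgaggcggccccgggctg
Sv2b, chr7:75309213-75309512, minus strand: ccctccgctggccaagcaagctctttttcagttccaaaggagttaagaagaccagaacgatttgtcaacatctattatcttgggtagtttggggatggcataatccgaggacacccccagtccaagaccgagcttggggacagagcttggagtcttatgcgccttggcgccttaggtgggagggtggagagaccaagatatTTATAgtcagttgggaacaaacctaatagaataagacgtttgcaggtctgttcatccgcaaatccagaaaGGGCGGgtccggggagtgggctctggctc
The Sv2c window held 2 GC boxes, no TATAA match and 71.7% G and C. The Sv2b window held 1 GC box and 1 TATAA match at 51.3% G and C. A GC box was present in 35.7%, a TATAA match in 24.9% and a CRE core in 20.8% of all 32851 promoter windows in the table. A match is a run of letters and does not show that a factor binds there.

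Sv2b, the SV2 form of many excitatory neurons, stood at 21.1 CPM in interneuron-like nuclei, against 302 CPM in pyramidal-like nuclei of the epilepsy library. In control nuclei it stood at 12.1 CPM in the interneuron-like class, against 260 CPM in pyramidal-like nuclei. The log2 ratio of interneuron-like to pyramidal-like was -3.84 (-5.16 to -2.79) in the epilepsy library and -4.43 (-5.64 to -3.45) in the control library. With doublets kept these ratios were -2.88 and -2.63, and without centring by library the control ratio was -2.83. Granule-like nuclei of the control library held 5 Sv2b UMIs, or 16.5 CPM (5.35 to 38.5), and those of the epilepsy library 0 UMIs of 12734, which allows up to 236 CPM. In the control library the log2 ratio of granule-like to pyramidal-like was -3.98 (-5.60 to -2.76), so pyramidal-like nuclei stood above interneuron- and granule-like nuclei. A cluster of 65 and 42 nuclei led by Tshz2, left unnamed for too few markers, held more Sv2b than pyramidal-like nuclei, at 497 CPM (405 to 604) in the epilepsy library and 464 CPM (359 to 591) in the control library.

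Not all Sv2b UMIs outside pyramidal-like nuclei fell to that low level. Oligodendrocyte-like nuclei held 161 CPM in the epilepsy library and 127 CPM in the control library, and microglia-like nuclei 251 CPM and 289 CPM. Thinned to 1000 UMIs per nucleus, 2.21% (0.457 to 6.31%) of interneuron-like nuclei in the epilepsy library had an Sv2b UMI, against 25.0% (23.2 to 26.9%) of pyramidal-like nuclei. These shares were 1.61% (0.334 to 4.64%) and 22.9% (21.3 to 24.5%) in the control library. In oligodendrocyte-like nuclei, which should lack the gene, the thinned shares were 18.5% (9.25 to 31.4%) and 8.57% (3.21 to 17.7%) on 54 epilepsy and 70 control nuclei that reached 1000 UMIs. The unthinned shares were 4.17% and 4.04% in interneuron-like, 49.4% and 54.7% in pyramidal-like and 9.18% and 13.6% in oligodendrocyte-like nuclei, with median UMIs of 2149.5 and 3270, 2567 and 3575, and 614 and 842. The 9 pyramidal markers summed to 1728 CPM (epilepsy) and 1896 CPM (control) in oligodendrocyte-like nuclei, 2169 and 2742 CPM in microglia-like nuclei and 796 and 779 CPM in interneuron-like nuclei. In pyramidal-like nuclei they summed to 3344 CPM and 3208 CPM. Pyramidal markers were thus present in both glial classes. A vesicle gene level there that did not exceed the pyramidal level beyond counting error is not read as expression. This covers Sv2b in microglia-like nuclei of the control library, whose log2 ratio to pyramidal-like nuclei was 0.15 (-0.43 to 0.68). The interneuron shares of Sv2b lay below the oligodendrocyte shares in both libraries. Oligodendrocyte-like nuclei held more of the pyramidal markers than interneuron-like nuclei, so this comparison does not separate background from low expression. The interneuron shares are not read as expression.

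Sv2c, the SV2 form with the most restricted distribution in the brain, had 34 UMIs in interneuron-like nuclei of the epilepsy library and 70 in those of the control library. The cluster led by Fgf13 and Pde11a held 34 of these 34 and 69 of these 70 UMIs. In that cluster Sv2c stood at 433 CPM (300 to 605) in the epilepsy library and 414 CPM (322 to 524) in the control library. The interneuron cluster led by Cdh13, which carries Lhx6, held 0 and 1 UMIs, and the cluster led by Adarb2 held 0 UMIs in both, which allows up to 29.8 and 16.1 CPM. The Fgf13 cluster held 37 and 54 nuclei and carried both Lhx6 (4 and 7 UMIs) and Adarb2 (221 and 500 UMIs).

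After thinning, 33.3% (18.6 to 51.0%) of the Fgf13 cluster's nuclei in the epilepsy library had an Sv2c UMI, against 32% (19.5 to 46.7%) in the control library. The unthinned shares were 45.9% and 61.1%. In oligodendrocyte-like nuclei, which should lack the gene, the unthinned shares were 0.633% and 0.452%, at median depths of 614 and 842 UMIs against 2070 and 3089.5 in the Fgf13 cluster. Granule-like nuclei held 4 Sv2c UMIs, or 314 CPM (85.6 to 804), in the epilepsy library and 30 UMIs, or 98.9 CPM (66.7 to 141), in the control library. Pyramidal-like nuclei held 17 UMIs (2.92 CPM) and 18 UMIs (1.85 CPM). In the control library the log2 ratio to pyramidal-like nuclei was 5.74 (4.85 to 6.67) for granule-like and 5.84 (5.07 to 6.67) for interneuron-like nuclei. Sv2c was the only one of the 8 genes under 50 UMIs in pyramidal-like nuclei, so no epilepsy to control ratio is read from it there.

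Sv2a stood at 102 CPM (71.0 to 143) in interneuron-like nuclei of the epilepsy library, against 51.7 CPM (46.0 to 57.9) in pyramidal-like nuclei. Levels in the control library were 118 CPM (93.1 to 147) in interneuron-like and 47.6 CPM (43.4 to 52.1) in pyramidal-like nuclei. This gave a log2 ratio of 0.99 (0.43 to 1.5) and 1.31 (0.94 to 1.66) in the epilepsy and control libraries. Granule-like nuclei of the control library, at 36.3 CPM (18.1 to 64.9), did not differ from pyramidal-like nuclei beyond counting error. Oligodendrocyte-like nuclei held 87.2 CPM (57.5 to 127) in the epilepsy library and 90.7 CPM (61.2 to 129) in the control library. That is above the pyramidal-like level in both libraries, with log2 ratios of 0.75 (0.13 to 1.32) and 0.93 (0.35 to 1.46), whereas Sv2b and Syt1 were below it.

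**Figure D1:**
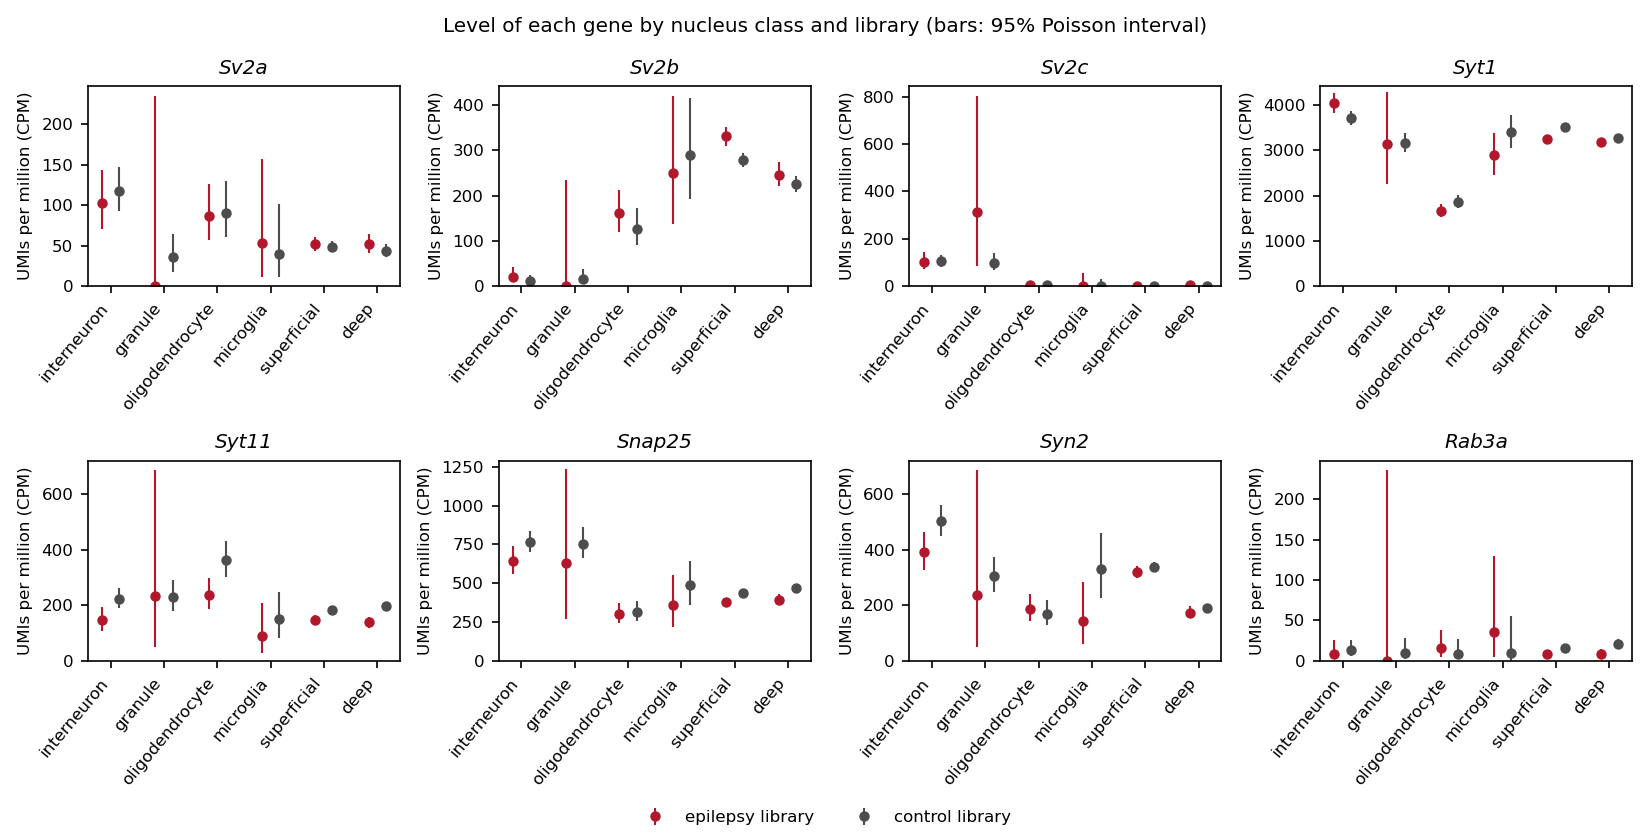
Level of each gene in CPM (linear axis from 0) in 6 nucleus classes, with the epilepsy library in red and the control library in grey. Points are class sums, bars are 95% Poisson intervals or, for a count of 0, the limit set by 3 counts; Sv2b is near 0 in interneuron- and granule-like nuclei, and Sv2c is near 0 outside them.

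Syt1, Snap25 and Syn2 differed less than the SV2 genes between interneuron-like and pyramidal-like nuclei. Syt1 (chr10:108497650-109010982, minus strand) stood at 4040 CPM (epilepsy) and 3706 CPM (control) in interneuron-like nuclei, against 3227 and 3411 CPM in pyramidal-like nuclei. Its interneuron-like to pyramidal-like log2 ratio was 0.32 (0.24 to 0.40) in the epilepsy library and 0.12 (0.06 to 0.18) in the control library. Within the interneurons the Fgf13 cluster was highest, at 5092 CPM (epilepsy) and 4195 CPM (control), and the Adarb2 cluster lowest, at 2887 and 3317 CPM.

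Snap25 (chr2:136713453-136782428, plus strand) stood at 645 CPM (562 to 738) in interneuron-like nuclei of the epilepsy library, against 393 CPM (377 to 409) in pyramidal-like nuclei. It stood at 766 CPM (700 to 835) and 453 CPM (439 to 466) in the same classes of the control library. Granule-like nuclei of the control library, at 755 CPM (660 to 859), had an interval that overlapped the interneuron one. The unnamed Tshz2 cluster held 1053 CPM (epilepsy) and 908 CPM (control). Its log2 ratios to pyramidal-like nuclei were 1.42 (1.21 to 1.62) and 1.00 (0.74 to 1.26). The Fgf13 cluster again held the most among interneurons, with 1006 CPM (epilepsy) and 1002 CPM (control). Its epilepsy level overlapped the intervals of neither other interneuron cluster, whose levels were 564 CPM (451 to 697) for Cdh13 and 486 CPM (360 to 643) for Adarb2.

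Syn2 (chr6:115134902-115282006, plus strand) stood at 392 CPM (327 to 465) in interneuron-like and 260 CPM (247 to 273) in pyramidal-like nuclei of the epilepsy library. The control library held 503 CPM (450 to 560) and 282 CPM (272 to 293) in these classes. Syt11 (chr3:88744700-88775164, minus strand) did not differ between interneuron- and pyramidal-like nuclei beyond counting error, with log2 ratios of 0.05 (-0.39 to 0.47) and 0.23 (-0.03 to 0.47). Among interneuron-, pyramidal- and oligodendrocyte-like nuclei Syt11 was highest in the last, at 239 CPM (188 to 300) in the epilepsy library and 363 CPM (301 to 434) in the control library. Both values exceeded the pyramidal-like levels of 142 CPM and 191 CPM. Rab3a (chr8:70754679-70758677, plus strand) was scarce everywhere, with 3 and 9 UMIs in interneuron-like and 52 and 163 UMIs in pyramidal-like nuclei.

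Counted over the 8 genes, 4 (Sv2a, Sv2c, Snap25 and Syn2) were past the fold mark on the higher side in interneuron-like over pyramidal-like nuclei in both libraries. The same held for 24% of 8685 genes with at least 50 UMIs in each library. Sv2b alone of the 8 was past it on the lower side in both libraries, which held for 19.3% of the genes. Scaling by trimmed means (TMM) in place of class totals shifted every interneuron-like to pyramidal-like ratio of the control library by 0.13 on the log2 scale. Relative to that shift Syt1 stood at -0.01 in the control library, and the 5 counted genes kept their direction.

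In pyramidal-like nuclei, Rab3a and Syt11 were lower in the epilepsy library than in the control library, Snap25, Syn2 and Syt1 were lower by smaller amounts, Sv2b was somewhat higher, and for Sv2a the interval held 0. Of the 8 genes, 7 had at least 50 UMIs in these nuclei. Of the 7, 2 were past the fold mark on the lower side in the epilepsy library, against 15.9% of 11078 genes, and 0 on the higher side, against 17.7%. At 1.5-fold, 1 of the 7 was lower, against 5.07% of genes, and 0 were higher, against 8.61%. All 7 had at least 200 UMIs. Of the 7157 genes with that many, 855 were past the fold mark on the lower side and 801 on the higher side. At 1.5-fold these counts were 178 and 236. The median log2 ratio of the 7 was -0.12, beside -0.00146 over all 11078 genes. With so few genes these counts describe the list and do not set it apart.

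Rab3a, which recruits vesicles for release, had 52 UMIs (8.93 CPM, 6.67 to 11.7) in pyramidal-like nuclei of the epilepsy library, against 163 UMIs (16.8 CPM, 14.3 to 19.5) in those of the control library. The log2 ratio was -0.91 (-1.39 to -0.45), a 1.88-fold lower level. It was lower in 5 of 6 pyramidal clusters, from -1.28 in the cluster led by Necab1 to 0.13 in the cluster led by Grm3, and the interval lay below 0 in 2 of them. Interneuron-like nuclei held 3 and 9 UMIs, too few for a ratio. Rab3a overlaps Mpv17l2 on the other strand by 29 bases, and Mpv17l2 had 6 and 21 UMIs in pyramidal-like nuclei. No source used here says whether strand was used in counting.

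Syt11 had 829 UMIs (142 CPM, 133 to 152) in pyramidal-like nuclei of the epilepsy library, against 1859 UMIs (191 CPM, 183 to 200) in those of the control library. On the log2 scale the ratio was -0.42 (-0.54 to -0.31). The gene was lower in 6 of 6 pyramidal clusters, from -0.77 in the cluster led by Tiparp to -0.21 in the cluster led by Necab1. It was also lower in interneuron-like nuclei (-0.60, -1.09 to -0.12) and in oligodendrocyte-like nuclei (-0.60, -1.04 to -0.17). No other gene of the 8 had an interval below 0 in all 3 of these classes. Low counts limit this comparison for Rab3a, with 3 and 9 UMIs in interneuron-like and 5 and 3 in oligodendrocyte-like nuclei. They also limit it for Sv2c, with 2 and 1 UMIs in oligodendrocyte-like nuclei.

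The promoters of the genes with the lowest ratios, Rab3a and Syt11, are printed in the same way, with the same motifs in capitals. Syt11 had 1 window in the table, at chr3:88772550-88772849. The annotated 5′ end of Syt11 is at 88775164, so this window lies inside the annotated gene and not at that end.
Rab3a, chr8:70754453-70754752, plus strand: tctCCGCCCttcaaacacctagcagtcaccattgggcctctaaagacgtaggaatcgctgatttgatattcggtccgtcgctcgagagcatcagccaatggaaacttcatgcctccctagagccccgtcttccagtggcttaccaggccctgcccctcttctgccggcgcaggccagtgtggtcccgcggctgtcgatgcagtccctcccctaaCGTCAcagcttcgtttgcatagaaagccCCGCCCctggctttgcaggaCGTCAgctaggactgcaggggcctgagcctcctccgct
Syt11, chr3:88772550-88772849, minus strand: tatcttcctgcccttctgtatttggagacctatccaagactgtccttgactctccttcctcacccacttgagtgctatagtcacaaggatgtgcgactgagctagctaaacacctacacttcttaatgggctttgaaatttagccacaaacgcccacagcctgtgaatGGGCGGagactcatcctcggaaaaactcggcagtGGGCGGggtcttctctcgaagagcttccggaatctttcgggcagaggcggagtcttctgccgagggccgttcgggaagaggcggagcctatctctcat
The Rab3a window held 2 CRE cores and 2 GC boxes, and the Syt11 window held 2 GC boxes. Among the 7 genes of the 8 with a window in the table, 1 window per gene was searched. Sv2b had 4 windows there, and Syt1, Syn2 and Rab3a had 2 each. In the searched windows the CRE core occurred in Rab3a alone and a GC box in all 7. Of all 32851 windows, 20.8% had a CRE core and 35.7% a GC box.

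Snap25 stood at 393 CPM (377 to 409) in pyramidal-like nuclei of the epilepsy library, against 453 CPM (439 to 466) in those of the control library, a log2 ratio of -0.20 (-0.28 to -0.13). It was lower in 6 of 6 pyramidal clusters, from -0.37 to -0.08, and in interneuron-like nuclei (-0.25, -0.48 to -0.01). Syn2 stood at 260 CPM (epilepsy) and 282 CPM (control), a ratio of -0.12 (-0.21 to -0.03). Its lowest pyramidal value, -0.41 (-0.67 to -0.16), was in the cluster led by Tiparp, Nr4a3 and Fos. In interneuron-like nuclei Syn2 had a ratio of -0.36 (-0.66 to -0.06), with -0.79 (-1.28 to -0.32) in the Cdh13 cluster and 0.07 (-0.46 to 0.59) in the Adarb2 cluster. The interneuron ratio was -0.19 with equal weight per nucleus and -0.20 after thinning, neither past the fold mark. Timp4, which lies within Syn2 on the other strand, had 114 and 199 UMIs in pyramidal-like nuclei.

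Sv2b stood at 302 CPM (288 to 317) in pyramidal-like nuclei of the epilepsy library, against 260 CPM (250 to 271) in those of the control library. The log2 ratio was 0.22 (0.13 to 0.30), it was above 0 in 6 of 6 pyramidal clusters, and the interval lay above 0 in 3 of them. Over the alternative settings it ran from 0.18 to 0.23. In deep-like nuclei the Sv2b ratio was 0.12 (-0.07 to 0.31) and ran from -0.11 to 0.22 over these settings. In superficial-like nuclei it was 0.25 (0.13 to 0.37) and ran from 0.04 to 0.28. Sv2a stood at 51.7 CPM (46.0 to 57.9) and 47.6 CPM (43.4 to 52.1), a ratio of 0.12 (-0.09 to 0.33). In interneuron-like nuclei the Sv2a ratio was -0.20 (-0.83 to 0.40). Sv2c in the Fgf13 interneuron cluster had a ratio of 0.06 (-0.57 to 0.68).

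Syt1 was slightly lower in pyramidal-like nuclei of the epilepsy library, at 3227 CPM against 3411 CPM in the control library, a ratio of -0.08 (-0.11 to -0.05). In interneuron-like nuclei it was higher, at 4040 CPM (epilepsy) against 3706 CPM (control), a ratio of 0.12 (0.03 to 0.22). The interneuron ratio was 0.28 (0.10 to 0.46) in the Fgf13 cluster, 0.21 (0.07 to 0.35) in the Cdh13 cluster and -0.20 (-0.41 to 0.00308) in the Adarb2 cluster. In interneuron-like nuclei 6 of the 8 genes had at least 50 UMIs. Of these 2 (Syt11 and Syn2) were past the fold mark on the lower side, against 19.7% of 3398 genes, and 0 on the higher side, against 17.1%. Their median was -0.22, beside -0.00262 over all 3398 genes. In oligodendrocyte-like nuclei 1 of 6 genes, Syt11, was past it on the lower side, against 19.2% of 2373 genes, and 1, Sv2b at 0.35 (-0.27 to 0.97), on the higher side, against 19.3%. The Sv2b levels in that class, 161 and 127 CPM, lay below the pyramidal ones and are not read as expression, so this ratio is not read as a change in oligodendrocytes.

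**Figure D2:**
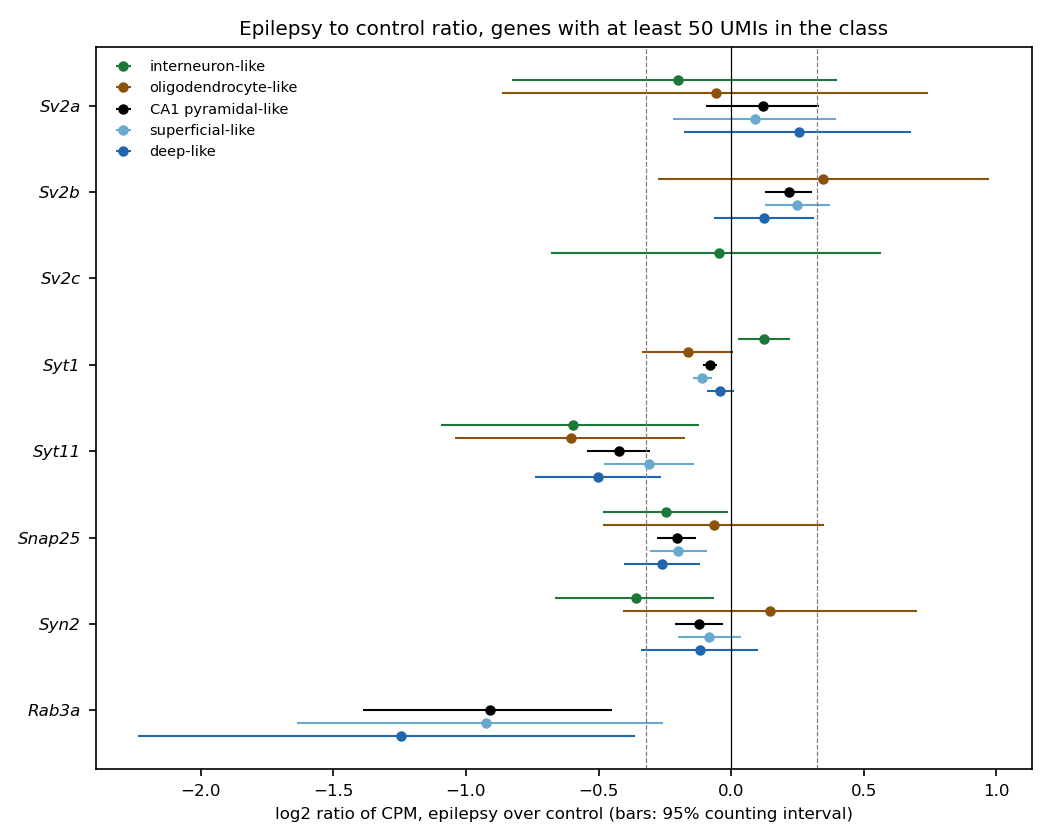
Log2 ratio of CPM in the epilepsy library over the control library for each gene and class with at least 50 UMIs in both libraries together, with bars for 95% counting intervals and dashed lines at the fold mark. Syt11 lies left of 0 in every class, and Sv2b lies right of 0 where shown. Rab3a reached 50 UMIs only in pyramidal-like nuclei and their sublayers, where it lies left of 0.

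Several measures differed between the libraries beside these ratios. Pyramidal-like nuclei had a median of 2567 UMIs in the epilepsy library and 3575 in the control library, and 0.0147% and 0.0175% of their UMIs were mitochondrial. In pyramidal-like nuclei of the epilepsy library, 8 of 8 interneuron markers summed to 87.3 CPM, against 57.4 CPM for 8 of 8 in the control library. The 7 oligodendrocyte markers, all detected, summed to 154 and 109 CPM and the 6 microglia markers, all detected, to 54.1 and 37.5 CPM. For astrocytes 5 of 6 markers summed to 534 CPM in the epilepsy library with Aqp4 at 0, against 566 CPM for 6 of 6 in the control library, and 5 of 6 granule markers summed to 55.1 and 45.0 CPM with C1ql2 at 0 in both. Genes that span under 10 kb, as Rab3a does at 4.00 kb, were past the fold mark on the lower side in 24.8% of cases, and those over 300 kb, as Syt1 at 513 kb, in 4.48%. For spans of 30 to 100 kb, which include Syt11 (30.5 kb) and Snap25 (69.0 kb), it was 13.3%. On the higher side the shares were 18.3% under 10 kb, 14.4% for 30 to 100 kb, 24.7% for 100 to 300 kb, which include Sv2b and Syn2, and 27.1% over 300 kb. The part of these measures in the ratios was not tested.

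Within the pyramidal layer, Syn2 was the gene that differed most clearly between sublayers, and it did so in both libraries. It had 923 UMIs (320 CPM, 299 to 341) in superficial-like nuclei and 255 UMIs (174 CPM, 153 to 197) in deep-like nuclei of the epilepsy library. In the control library it had 1565 UMIs (339 CPM, 322 to 356) in superficial-like and 530 UMIs (189 CPM, 173 to 206) in deep-like nuclei. The log2 ratio of superficial-like to deep-like was 0.88 (0.67 to 1.08) in the epilepsy library and 0.84 (0.70 to 0.99) in the control library. The Syn2 promoter is printed for this difference.
Syn2, chr6:115134652-115134951, plus strand: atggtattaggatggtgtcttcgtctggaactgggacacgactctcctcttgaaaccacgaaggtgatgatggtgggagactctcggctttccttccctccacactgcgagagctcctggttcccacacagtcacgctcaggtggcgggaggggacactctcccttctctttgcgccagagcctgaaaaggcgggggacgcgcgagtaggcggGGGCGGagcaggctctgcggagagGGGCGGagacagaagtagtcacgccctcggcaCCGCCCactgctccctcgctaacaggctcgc
The Syn2 window held 3 GC boxes, no TATAA match and no CRE core.

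Syn2 also graded among the superficial-like clusters. The cluster led by Necab1 held 369 CPM (337 to 402) in the epilepsy library and 382 CPM (357 to 409) in the control library, the cluster led by Tenm3 278 CPM (244 to 314) and 321 CPM (293 to 352), and the cluster led by Tesc 273 CPM (233 to 317) and 265 CPM (233 to 300). The clusters of at least 30 nuclei that met neither sublayer rule lay between these and the deep-like cluster in the epilepsy library. The Tiparp cluster held 215 CPM (186 to 247) and 286 CPM (258 to 317), and the Grm3 cluster 236 CPM (197 to 280) and 271 CPM (239 to 307). The Syn2 interval of the deep-like cluster in the control library lay below that of each of the 5 other clusters with at least 30 nuclei. In the epilepsy library it overlapped only that of the Tiparp cluster.

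Sv2b was higher in superficial-like nuclei as well, at 331 CPM (310 to 352) against 247 CPM (222 to 273) in deep-like nuclei of the epilepsy library. In the control library the values were 278 CPM (263 to 294) in superficial-like and 226 CPM (209 to 244) in deep-like nuclei. The log2 ratios were 0.42 (0.25 to 0.60) and 0.30 (0.16 to 0.44). The control ratio lay under the fold mark, so that 1 of the 6 genes with enough UMIs, Syn2, was past it on the higher side in superficial-like nuclei in both libraries. The same held for 13.4% of 7567 genes, and 0 of the 6 were lower, against 6.34%. Snap25 was -0.05 (-0.20 to 0.10) and -0.11 (-0.21 to -0.0086), and Syt1 0.03 (-0.02 to 0.08) and 0.10 (0.06 to 0.14). For Sv2a, Syt11 and Rab3a the interval held 0 in both libraries.

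How superficial-like nuclei are defined moved these values. The rule used was relaxed after the clusters were seen. In its first form, which required raised Epha3 as well, leaves the Necab1 cluster of 487 and 560 nuclei and was added back as an alternative after the data were seen, Syn2 stood at 1.08 and 1.01, and Syn2 and Sv2b both passed the fold mark. With pyramidal-like nuclei split at the median of Calb1 minus Ndst4, Syn2 stood at 0.51 and 0.35 and Sv2b at 0.11 and 0.09. TMM scaling shifted the ratios of the epilepsy library by 0.12, which put Syn2 at 0.76, Sv2b at 0.31 and Syt1 at -0.09.

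**Figure D3:**
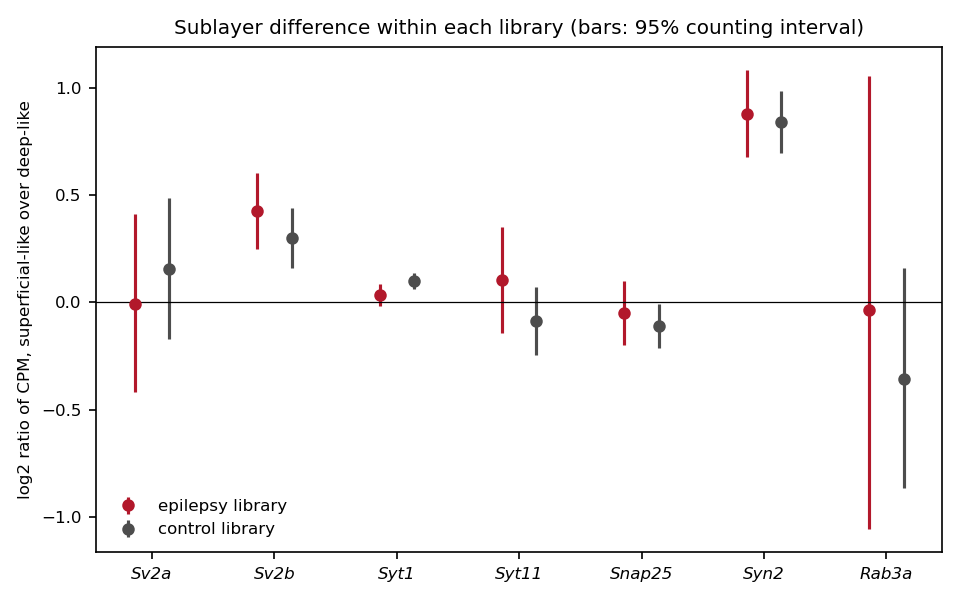
Log2 ratio of CPM in superficial-like over deep-like nuclei for 7 genes, computed within the epilepsy library (red) and within the control library (grey), with bars for 95% counting intervals. Syn2 and Sv2b lie above 0 in both libraries, and Sv2c is left out for its low count.

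The epilepsy to control ratios were close in the sublayers. The median over 7 genes was -0.11 in superficial-like and -0.12 in deep-like nuclei, beside 0.02 and -0.04 over all genes with at least 50 UMIs. In superficial-like nuclei 1 gene, Rab3a, was past the fold mark on the lower side, against 14.3% of 9245 genes, and in deep-like nuclei 2 genes, Rab3a and Syt11, were, against 21.6% of 7290 genes. None of the 7 was past it on the higher side in either, against 18.9% and 14.9% of genes. Rab3a stood at 8.66 CPM (epilepsy) against 16.4 CPM (control) in superficial-like nuclei, a ratio of -0.92 (-1.64 to -0.26). In deep-like nuclei it stood at 8.88 CPM (epilepsy) against 21.04 CPM (control), a ratio of -1.245 (-2.24 to -0.36). The size of these Rab3a ratios depended on the processing. The deep-like one was -2.22 after thinning to 1000 UMIs and -0.66 with the split at the median of Calb1 minus Ndst4, and the superficial-like one was -1.67 with at least 500 detected genes per nucleus. Syt11 had ratios of -0.31 (-0.48 to -0.14) in superficial-like and -0.50 (-0.74 to -0.27) in deep-like nuclei. With the median split the superficial-like Syt11 ratio was -0.65, past the fold mark.

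The difference of these ratios, superficial-like minus deep-like, had an interval that held 0 for 7 of the 8 genes. It was 0.32 (-0.76 to 1.40) for Rab3a, 0.19 (-0.10 to 0.48) for Syt11, 0.13 (-0.10 to 0.35) for Sv2b and -0.16 (-0.67 to 0.35) for Sv2a. The exception was Syt1, at -0.07 (-0.13 to -0.0039), with -0.11 in superficial-like and -0.04 in deep-like nuclei. A difference between sublayers in the response of these genes was otherwise not detectable at this depth.

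Around the 8 genes, the wider vesicle cycle had no common direction in pyramidal-like nuclei. Of 115 other vesicle and SNARE genes, listed by role but with earlier results of these data known, 101 had at least 50 UMIs. The median over these 101 was 0.0066 (epilepsy over control, log2), with 8 past the fold mark on the lower side and 5 on the higher side. Of all 11078 genes, 15.9% and 17.7% were past it on these sides, larger shares than 8 and 5 of 101. More of all genes than of the vesicle genes had low counts, which widens this contrast. With at least 200 UMIs, 6 and 3 of 92 vesicle genes were past it, against 855 and 801 of 7157 genes. By role the medians ran from -0.12 for 12 synapsins and vesicle membrane proteins and -0.11 for 11 subunits of the proton pump to 0.06 for 24 endocytosis genes and 0.06 for 12 SNARE chaperones and clamps. The 17 other SNARE genes had a median of -0.05, with 1 lower and 0 higher.

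The role listed as calcium sensors holds synaptotagmins and related genes, some of which lack calcium binding. Of the 11 measured, 4 were past the fold mark on the lower side and 1 on the higher side, against 15.9% and 17.7% of all genes. The lower ones were Syt4 (-0.41, -0.78 to -0.06), Syt5, Syt14 and Syt16. The higher one was Syt10 (0.48, -0.21 to 1.16), on 35 and 42 UMIs and with an interval that held 0. Syt5, a sensor of regulated secretion, stood at 21.5 CPM (epilepsy) against 37.6 CPM (control), a ratio of -0.81 (-1.11 to -0.51). Syt14 (-0.49, -0.63 to -0.36) and Syt16 (-0.36, -0.44 to -0.27), which like Syt11 lack calcium binding, were lower too. Mal2, a vesicle membrane proteolipid, stood at -0.39 (-0.61 to -0.18), and Stxbp5l, a tomosyn that competes for SNARE partners, at -0.32 (-0.38 to -0.26). Atp6v1c1, a subunit of the pump that acidifies vesicles, stood at -0.53 (-0.83 to -0.24).

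On the other side, Synpr, a vesicle protein known from granule cell terminals, stood at 14.6 CPM (epilepsy) against 6.99 CPM (control), a ratio of 1.06 (0.59 to 1.54) on 85 and 68 UMIs. Interneuron-like nuclei held 639 CPM (epilepsy) and 568 CPM (control) of it, and interneuron markers in pyramidal-like nuclei summed to 87.3 and 57.4 CPM. Their part in the Synpr ratio was not tested. Snph, an axonal protein that binds syntaxin and anchors mitochondria, stood at 0.39 (0.28 to 0.50). Svop, a relative of the SV2 proteins, stood at 0.26 (0.17 to 0.35). The endocytosis genes Sh3gl1, an endophilin (0.35, 0.20 to 0.51), Ap2b1, an adaptor subunit (0.28, 0.20 to 0.35), and Itsn2, a scaffold (0.25, 0.14 to 0.35), were also higher.

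In interneuron-like nuclei 58 of the 115 genes had at least 50 UMIs, with a median of 0.03, 10 past the fold mark on the lower side and 14 on the higher side, against 19.7% and 17.1% of 3398 genes. Sh3gl2, an endophilin, was lower (-0.56, -1.13 to -0.02). Stx16, a SNARE of the Golgi, had a ratio of -0.72 (-1.60 to 0.08). Nsf, the ATPase that takes SNARE complexes apart (0.44, 0.16 to 0.72), Rph3a, an effector of Rab3 (0.51, 0.13 to 0.88), and Svop (0.59, 0.16 to 1.01) were higher. Svop was thus above 0 in both classes, as Sv2b was in pyramidal-like nuclei.

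**Figure D4:**
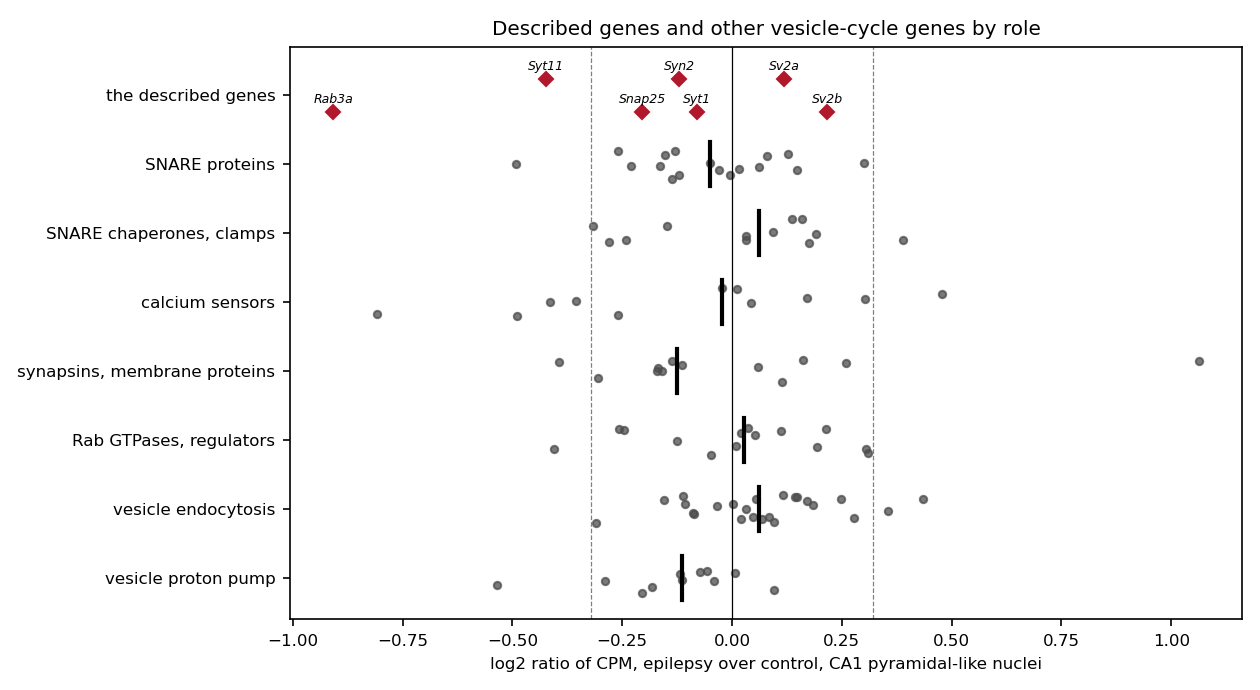
Log2 ratio of CPM in the epilepsy library over the control library in pyramidal-like nuclei, with 7 of the 8 described genes as red diamonds and 101 other vesicle-cycle genes as grey points by role. Thick bars are role medians, dashed lines show the fold mark, and points are spread vertically for legibility only; Rab3a lies lowest of all genes plotted.

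Some genes outside these lists followed the pattern of a member across classes. Over 15 pairs of a class and a library with at least 20 nuclei, the log2 level of Sv2c was most alike that of Rasgrf2 (Pearson's r 0.97), Trpc6 (0.93) and Zfp804b (0.92). Sv2b was most alike 4921539H07Rik (0.95), Ext1 (0.93) and Tbc1d1 (0.91), and Sv2a was most alike Slco3a1 (0.85), Simc1 (0.84) and Depdc5 (0.81). Syt1 was most alike Dlgap2 (0.98), and Snap25 most alike Rims1 (0.97), which encodes an active zone protein. Syn2 was most alike Aff2 (0.87), Rab3a most alike Ap1s1 (0.91) and Syt11 most alike Zfp672 (0.85). These values describe 15 points that share libraries and depth, out of 4897 genes searched, and no p belongs to them.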

How the data were processed

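Single nuclei of dorsal CA1 were profiled with a droplet 3′ kit in 1 epilepsy and 1 control library. The authors deposited raw UMI counts per gene and nucleus, made with Cell Ranger 2.2.0 on GRCm38 (mm10), per the submitters' processing notes, which also name FastQC. The annotation and whether intronic reads were counted are not given in the sources used here. Since nuclei hold unspliced RNA, this choice can weight genes by length.

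A minimum of 200 detected genes and a mitochondrial share below 5% removed no nucleus. Scrublet's own threshold marked 3 and 4 nuclei (0.0975% and 0.109%), too few to rely on, so the 3% with the highest scores were removed. Counts were scaled to 10000, centred within each library and clustered with scanpy 1.11.5 and leidenalg 0.10.2 (2000 variable genes, 30 components, 20 neighbours, resolution 1.0) on Python 3.11.15, without the 8 genes and 115 further vesicle genes. Clusters were named from at least 3 detected markers. CPM are class sums with exact Poisson intervals, ratios have exact conditional binomial intervals and shares have Clopper-Pearson intervals (scipy 1.17.1), all at 95%. Molecules are counted by identifier, and the intervals cover counting error only. A log2 ratio past 0.32 with at least 50 UMIs and 30 nuclei per library is called past the fold mark. No test was possible with 1 library per group, and edgeR 4.0.16 (R 4.3.3) gave TMM factors for an alternative only. The counting and ratio steps were tested on simulated data.

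The genes and lists were chosen with earlier results of these data known, as were the naming thresholds. The superficial rule first asked for Epha3 at 1.25-fold. It was relaxed to any Epha3 level above the other pyramidal-like nuclei after the clusters were seen. Clustering was repeated in other numerical settings to make it repeatable, and clusters other than the deep-like one shifted between them. The gene span classes, motifs and printed promoters were chosen after values were seen. Of the 115 genes, named ones are the 6 highest and 6 lowest ratios by the bound nearest 0 in pyramidal-like nuclei (at least 100 UMIs) and the 3 highest and 3 lowest in interneuron-like nuclei, of which 1 is not reported here. Likeness is Pearson's r of log2(CPM + 10) among genes with at least 500 UMIs, and the 3 most alike per gene were listed. Gene positions are from GENCODE on GRCm38, which held 30330 of 30431 identifiers. RefSeq promoter windows matched 7 of the 8 genes.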

Additional observations from a re-analysis of the deposited data

Results flagged for a closer look

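Syt1, the calcium sensor for fast release, had epilepsy to control log2 ratios on opposite sides of 0 in 2 classes of nuclei. It stood at 0.12 (0.03 to 0.22) in interneuron-like nuclei and at -0.08 (-0.11 to -0.05) in pyramidal-like nuclei, a difference of 0.20. With 1 library per group this difference was not tested. In the Adarb2 interneuron cluster the ratio was -0.20 (-0.41 to 0.00308), so not every interneuron cluster lay above 0.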

How the results depend on the processing

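The median log2 ratio over those of the 8 genes with enough UMIs, 7 in the pyramidal classes and 6 in interneuron-like nuclei at the minimum of 50 UMIs, stayed below 0 under every alternative run, from -0.13 to -0.10 in pyramidal-like nuclei, -0.18 to -0.08 in deep-like, -0.16 to -0.06 in superficial-like and -0.25 to -0.17 in interneuron-like nuclei. That of the other vesicle genes, 101 of 115 at that minimum, ran from -0.03 to 0.03 and kept its sign in 8 of 12 alternatives. No called value changed sign. In superficial-like nuclei the median moved to -0.06 (-0.0564) with the vesicle genes allowed in clustering and to -0.07 (-0.0671) with Epha3 required as well, the first form of the rule, added as an alternative after the data were seen. At a fold of 1.5, 1 gene in place of 2 was lower in pyramidal-like nuclei. The count of genes different between sublayers in both libraries was 2 in place of 1 with doublets kept, at resolution 2.0, with the vesicle genes allowed in clustering, without centring by library and with Epha3 required. For these the cause was not tested. Of 788 alternative values of single genes, 755 stayed inside the counting interval of the value reported. No paired analysis was possible because each group has 1 library. Rab3a (52 and 163 UMIs in pyramidal-like nuclei), Sv2c outside 1 interneuron cluster and all granule-like values of the epilepsy library are limited by depth.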
